A study of Mus musculus with 9 samples.

Results

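The basement membrane is the thin matrix sheet under an epithelium and around blood vessels, nerves and glands. In these data it was followed through 10 genes measured in mouse olfactory mucosa: the metalloprotease inhibitors Timp1, Timp2 and Timp3, the collagen chains Col4a1, Col4a2 and Col18a1, the linking proteins Nid1, Hspg2 and Fbln2, and the laminin chain Lamb2. They are 10 of 23631 measured features and were chosen by gene symbol with their levels in the 3 groups of mice in view. Their levels and differences below are therefore a description, with no test, and a count of these genes past a threshold supports nothing. After 2 weeks of dexamethasone, Timp3 had the largest difference of the 10, a mean 2.4-fold below the saline controls. Col18a1 was 1.98-fold lower, Fbln2 1.86-fold lower and Lamb2 1.7-fold lower. After 1 day of dexamethasone the same 4 genes differed from the controls by -0.07 to -0.15 on the log2 scale.

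Basement membranes are built from a laminin network, which binds receptors on cells, and a collagen IV network, which gives the sheet its strength. Nidogens, the heparan sulfate proteoglycan perlecan and fibulins link the networks, and collagen XVIII sits at the face toward the underlying connective tissue. Metalloproteases of the MMP, ADAM and ADAMTS families cut these proteins, and the 4 TIMP proteins block those enzymes. TIMP3 differs from the other TIMPs in that it stays bound to the matrix, and it also inhibits ADAM17 and several aggrecan-cutting ADAMTS enzymes. In the olfactory mucosa such a sheet separates the neuroepithelium from the lamina propria, which holds Bowman's glands, vessels and bundles of olfactory axons with their ensheathing glia.

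Total RNA was taken from the olfactory mucosa of wild-type male C57BL/6 mice aged 6 to 8 weeks, with no transgene or deletion in any group. The control group (Ctrl) received saline for 2 weeks, the D1 group dexamethasone, a synthetic glucocorticoid, for 1 day, and the WK2 group dexamethasone every day for 2 weeks by intraperitoneal injection at 1 mg/kg. The dose and route are stated for WK2. Of 27 mice, 9 per group, 3 samples per group were measured, and the submitters selected these on their expression of olfactory marker protein (Omp), which marks mature olfactory neurons. The labels do not say whether a sample is 1 animal, so the spread below is that between samples and may be technical. D1 differs from its control in the length of the injections as well as in the drug.

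The promoters of these genes are shown first because most of the members share 1 sequence feature that the choice of genes did not use. RefSeq's windows for mouse build GRCm38.p6 run from 250 bases before to 50 bases after a transcript start. All 10 genes matched, with 11 windows, since Col18a1 has 2 starts. The GC box, the letters GGGCGG or CCGCCC on either strand and a known binding sequence of Sp-family factors, stood in 9 of the 11 windows and in 9 of the 10 genes, against 35.7% of all 32851 windows in the table, which were not matched on G and C content. Lamb2 had none, and its window had the lowest share of G and C of the 11, at 44.0%, where the highest was 74.0%. In the sequences below, written 5′ to 3′ on the gene's own strand, capitals mark the GC box. They are the windows of Timp3 (chr10:86300162-86300461, + strand), the gene with the largest difference, and of Timp1 (chrX:20869916-20870215, + strand), which did not share it. Fbln2 (chr6:91212514-91212813, + strand) and both starts of Col18a1 (chr10:77166481-77166780 for the first and chr10:77113656-77113955 for the second, − strand) belong to the next largest differences.
Timp3: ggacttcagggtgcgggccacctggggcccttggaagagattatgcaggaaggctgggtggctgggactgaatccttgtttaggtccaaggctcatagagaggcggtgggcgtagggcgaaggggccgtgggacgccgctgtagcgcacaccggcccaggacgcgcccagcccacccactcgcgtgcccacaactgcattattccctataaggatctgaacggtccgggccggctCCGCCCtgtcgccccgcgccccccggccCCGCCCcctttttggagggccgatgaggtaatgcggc
Timp1: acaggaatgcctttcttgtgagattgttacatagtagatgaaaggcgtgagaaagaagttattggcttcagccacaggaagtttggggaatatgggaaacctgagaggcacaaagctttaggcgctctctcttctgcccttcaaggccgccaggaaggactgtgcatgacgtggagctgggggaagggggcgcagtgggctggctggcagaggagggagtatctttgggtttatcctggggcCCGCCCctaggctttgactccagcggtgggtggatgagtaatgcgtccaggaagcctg
Fbln2: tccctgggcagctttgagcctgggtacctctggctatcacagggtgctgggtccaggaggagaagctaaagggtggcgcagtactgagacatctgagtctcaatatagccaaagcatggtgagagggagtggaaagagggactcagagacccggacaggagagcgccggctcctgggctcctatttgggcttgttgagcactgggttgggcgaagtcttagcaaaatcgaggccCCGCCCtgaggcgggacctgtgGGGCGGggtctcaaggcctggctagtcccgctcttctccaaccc
Col18a1, first start: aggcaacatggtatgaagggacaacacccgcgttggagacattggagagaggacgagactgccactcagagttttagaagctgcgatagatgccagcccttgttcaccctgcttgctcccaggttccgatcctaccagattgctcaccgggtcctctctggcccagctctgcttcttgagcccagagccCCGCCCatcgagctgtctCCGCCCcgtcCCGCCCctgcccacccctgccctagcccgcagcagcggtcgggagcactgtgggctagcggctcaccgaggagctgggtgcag
Col18a1, second start: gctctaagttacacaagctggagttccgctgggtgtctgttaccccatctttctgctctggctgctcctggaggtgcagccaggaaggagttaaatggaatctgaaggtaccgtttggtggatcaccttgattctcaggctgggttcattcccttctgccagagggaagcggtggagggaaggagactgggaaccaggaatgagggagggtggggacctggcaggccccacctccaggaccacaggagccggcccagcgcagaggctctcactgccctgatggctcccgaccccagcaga
The second Col18a1 window held no GC box. The other 5 motifs searched had no match in any of the 11 windows. They were the full glucocorticoid receptor palindrome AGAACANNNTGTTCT, in 0.00913% of all windows, its hexamer AGAACA, in 19.0%, the AP-1 site TGANTCA, in 7.81%, the E-box CACGTG, in 7.15%, and the TATA box TATAAA, in 13.6%, each searched on both strands. The hexamer is part of the palindrome, so a palindrome counts for both. A match is only a description of the letters, and no match says only that the letters are absent from these windows.

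Col4a1 and Col4a2 are transcribed in opposite directions from starts that lie so close that their transcripts overlap by 22 bases, so 1 stretch of DNA belongs to the promoter windows of both. The 78 bases common to the 2 windows (chr8:11312777-11312854, GRCm38.p6, + strand) are 73.1% G and C and hold 1 GC box, in capitals. That box is the only 1 of the Col4a1 window, so these 2 windows are not independent in the GC box count above.
Col4a1 and Col4a2: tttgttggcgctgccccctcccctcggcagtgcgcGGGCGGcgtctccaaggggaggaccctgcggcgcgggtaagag
The pair is shown because these neighbours, whose protein chains combine in the same collagen IV molecule, differed from control by different amounts after 2 weeks, as given below.

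The values are linear probe intensities, and differences are on the scale log2(intensity + 50), estimated with 1 linear model over all 9 arrays. This scale understates the change of dim genes. In bulk RNA, fewer cells of a type and less RNA per cell cannot be told apart. A probe's level is not comparable with another probe's, so genes are compared only by their differences. Array medians were 1202 to 1447 and the correlations between arrays of a group 0.977 to 0.993. The lowest were those of WK2 replicate 3, whose mean intensity was 8726 against 7203 to 7627 on the other arrays, so differences of named genes that move by over 1.5 times without it are also given without it. Control replicate 2 had the lowest median. In the alternative with array weights it also had the lowest weight, 0.233, and WK2 replicate 3 the next, 0.265. The other arrays had weights of 0.847 to 2.498. The median difference of all features was 0.14 for WK2 minus control, which quantile normalization brings to 0.01, and 0.03 for D1 minus control. Omp, the gene the samples were selected on, had a mean intensity of 337500 ± 64100 (SD, n = 3) in control, 408900 ± 79400 in D1 and 506700 ± 30900 in WK2, and is no independent result. The sustentacular marker Cyp2g1 was bright in control (425300 ± 48500, SD, n = 3), as the label olfactory mucosa requires.

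Timp3 encodes the inhibitor that is held in the matrix. Its intensity was 36729, 55930 and 48687 on the 3 control arrays, 42878, 45090 and 39817 on the D1 arrays, and 18150, 17243 and 23094 on the WK2 arrays. Every WK2 array was below every control and every D1 array, while control and D1 overlapped. The means were 47120 ± 9700 (SD, n = 3), 42600 ± 2650 and 19500 ± 3150, and WK2 minus control was -1.26 ± 0.19 (log2, SE), or 2.4-fold lower. WK2 minus D1 was -1.14, or 2.2-fold lower, and D1 minus control was -0.13. The D1 difference rests on control replicate 2, the brightest array, without which it was 0.01. The small D1 differences of the members below also moved by over 1.5 times with single arrays, from -0.19 to -0.01 for Col18a1 and from -0.25 to -0.04 for Lamb2. For Fbln2 the range was -0.20 to 0.02, with a positive value only without D1 replicate 1.

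Timp2, a soluble inhibitor that also takes part in the activation of MMP2 on the cell surface, had a smaller difference in the same direction. Its intensity was 102839, 96134 and 109822 in control, 84649, 90402 and 97637 in D1, and 82765, 66735 and 86126 in WK2. WK2 lay below control on all arrays, while D1 overlapped both. The WK2 difference from control was -0.40 ± 0.15 (log2, SE), or 1.32-fold lower, and -0.60 after quantile normalization. D1 minus control was -0.18 and WK2 minus D1 -0.22, the latter -0.10 without WK2 replicate 2.

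Timp1, the inhibitor that is induced in many inflamed and remodelling tissues, had another pattern. Its control arrays read 8619, 10089 and 9867, the D1 arrays 5617, 7592 and 6104, and the WK2 arrays 10939, 6881 and 17772. All 3 D1 arrays were below all control arrays. WK2 ran from below to above the control arrays, with a coefficient of variation of 46.4%, and overlapped only with the highest D1 array. D1 minus control was -0.57 ± 0.29 (log2, SE), or 1.48-fold lower. WK2 minus control was 0.21 ± 0.29, 0.55 without WK2 replicate 2 and -0.13 without WK2 replicate 3, so its sign rests on the latter array. WK2 minus D1 was 0.78, and 0.44 without that array.

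**Figure D1:**
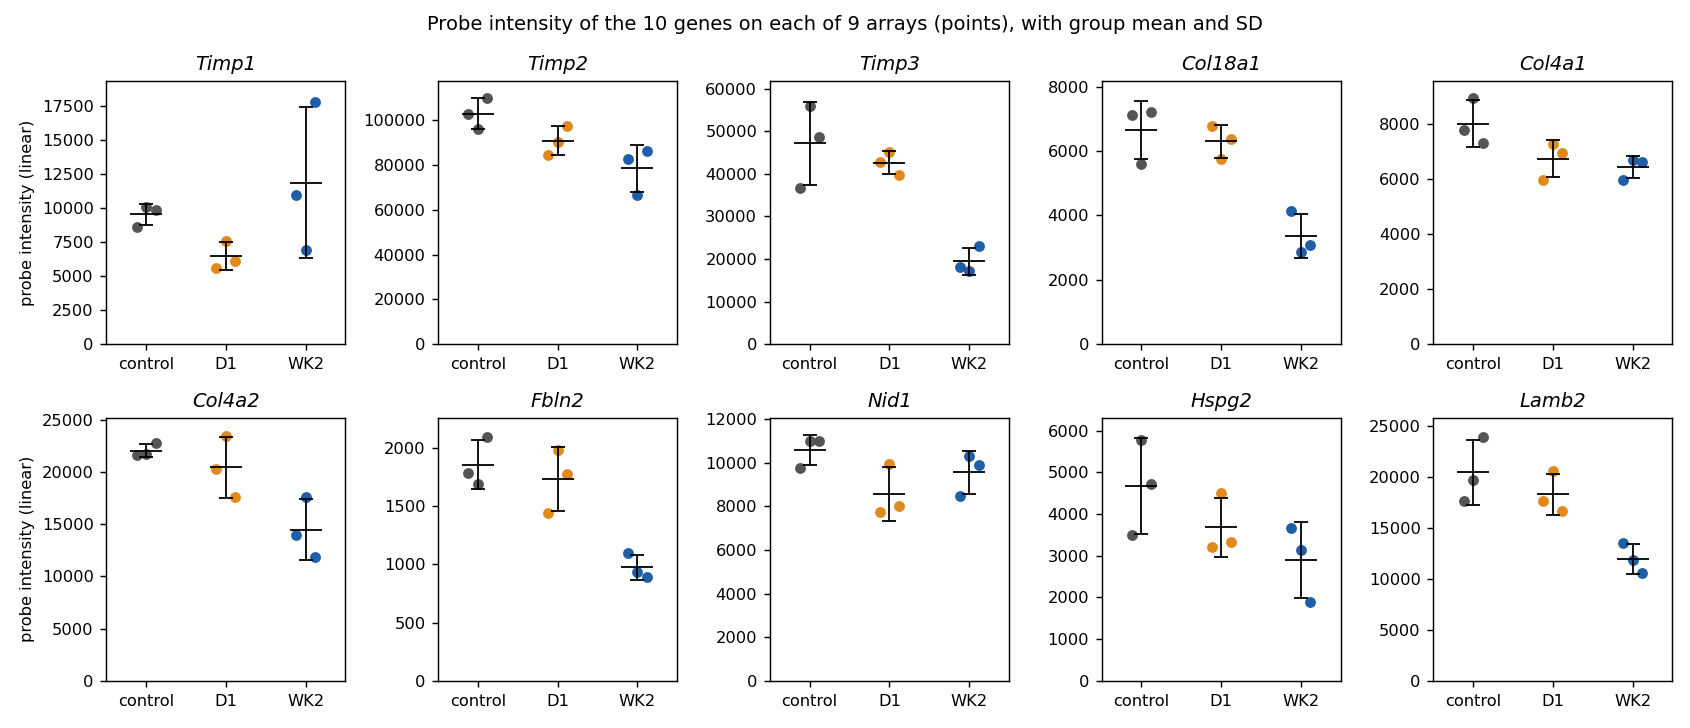
Probe intensity (linear, each axis from 0) of the 10 genes on each array (points) in the control, D1 and WK2 groups, with the group mean (long line) and SD (bars), n = 3. Timp3, Col18a1, Fbln2 and Lamb2 have all 3 WK2 arrays below all arrays of both other groups, while Timp1 has its lowest group mean in D1 (6438) and its widest spread in WK2.

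Col18a1 encodes the collagen XVIII chain, whose C-terminal fragment is endostatin. The control arrays gave 7116, 5609 and 7202, the D1 arrays 6772, 5750 and 6363, and the WK2 arrays 4146, 2853 and 3068. WK2 did not overlap with either group, and control and D1 overlapped. The means were 6642 ± 896 (SD, n = 3), 6295 ± 514 and 3356 ± 693. Its difference between WK2 and control was -0.98 ± 0.18 (log2, SE), or 1.98-fold lower, WK2 minus D1 was -0.91 and D1 minus control -0.07.

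Col4a2 encodes the alpha2 chain of collagen IV. It read 21583, 21687 and 22718 in control, 20310, 23381 and 17572 in D1, and 13913, 17629 and 11887 in WK2. All WK2 arrays were below all control arrays, while the highest WK2 array was just above the lowest D1 array. That put WK2 at -0.62 ± 0.18 (log2, SE) from control, or 1.54-fold lower, and -0.49 without WK2 replicate 3. D1 minus control was -0.12.

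Col4a1, the partner chain, read 7792, 8950 and 7293 in control, 5976, 7258 and 6959 in D1, and 5956, 6682 and 6618 in WK2. Both dexamethasone groups lay below control on all arrays and overlapped with each other. The difference WK2 minus control was -0.31 ± 0.15 (log2, SE), or 1.24-fold lower, and D1 minus control was -0.25. WK2 minus D1 was -0.07. In these means, D1 minus control was closer to WK2 minus control for Col4a1 than for Col4a2. The SE of D1 minus control was 0.15 for Col4a1 and 0.18 for Col4a2. Over the alternatives it ran from -0.31 to -0.15 and from -0.22 to -0.01, which overlap. The groups are separate samples, so no order in time is read from this. The difference between the 2 genes was not tested.

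Fbln2 encodes fibulin-2, which binds nidogen, laminin and fibronectin. Its intensity was 1787, 1689 and 2091 in control, 1443, 1981 and 1778 in D1, and 1097, 936 and 896 in WK2. WK2 was below both groups without overlap. The means were 1856 ± 210 (SD, n = 3), 1734 ± 272 and 976 ± 106. WK2 minus control was -0.89 ± 0.17 (log2, SE), or 1.86-fold lower, and D1 minus control -0.10. Fbln2 is the dimmest of the 10 genes, so a larger pseudocount shrinks its difference, to -0.67 at 500.

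Hspg2 encodes perlecan, which carries heparan sulfate chains that bind growth factors. It read 3487, 5782 and 4716 in control, 3214, 4493 and 3335 in D1, and 3672, 3140 and 1881 in WK2. The groups overlapped in every comparison. Between WK2 and control the difference was -0.70 ± 0.27 (log2, SE), or 1.62-fold lower, and -0.42 when WK2 replicate 3 was left out. WK2 minus D1 was -0.38, -0.10 without that array and -0.23 without D1 replicate 2.

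Nid1 encodes nidogen-1, which joins laminin to collagen IV. It read 9772, 10997 and 10997 in control, 7739, 9968 and 8000 in D1, and 8463, 10312 and 9895 in WK2. All 3 groups overlapped. WK2 minus control was -0.15 ± 0.16 (log2, SE) and D1 minus control -0.31. A second Nid1 probe, at 97 to 238 intensity, had differences of 0.34 and 0.36, and the mean of both probes gave 0.10 and 0.02, so the direction for Nid1 depends on the probe.

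Lamb2 encodes the laminin beta2 chain, found in basement membranes of vessels, muscle and nerve. It read 17711, 19752 and 23943 in control, 17672, 20590 and 16689 in D1, and 13526, 11889 and 10595 in WK2. WK2 was below every array of both groups. The means were 20470 ± 3180 (SD, n = 3), 18320 ± 2030 and 12000 ± 1470. WK2 minus control was -0.76 ± 0.17 (log2, SE), or 1.7-fold lower, WK2 minus D1 -0.61 and D1 minus control -0.15.

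**Figure D2:**
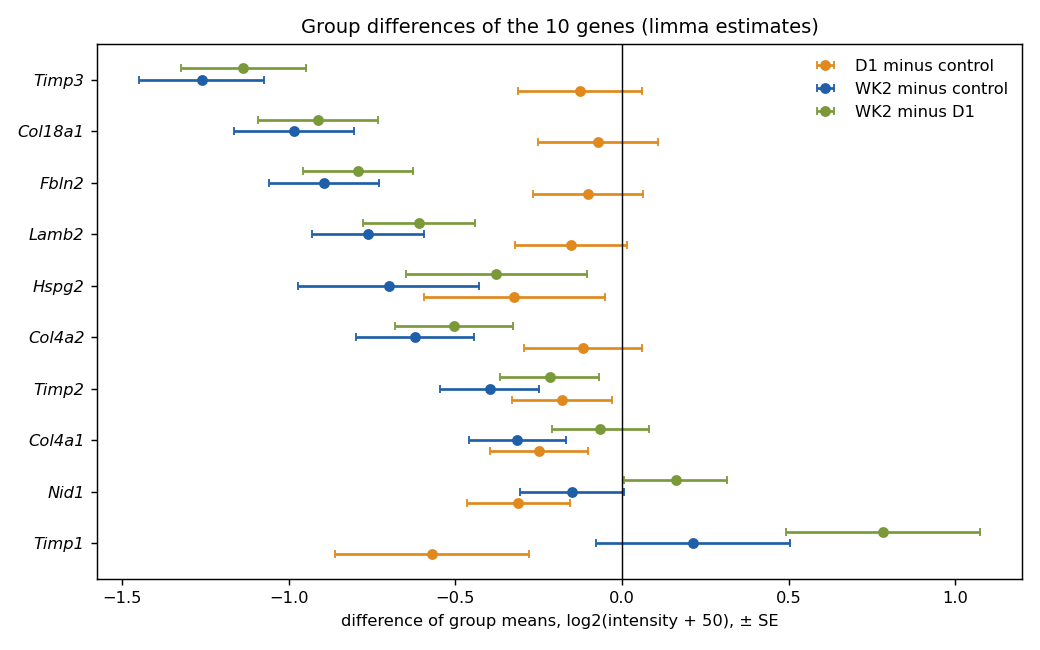
Differences between group means for the 10 genes on the scale log2(intensity + 50), with the SE of the linear model as bars, for D1 minus control, WK2 minus control and WK2 minus D1 (n = 3 arrays per group). The 9 WK2 minus control values below 0 run from -1.26 for Timp3 to -0.15 for Nid1, and Timp1 is at 0.21. D1 minus control is below 0 for all 10 genes and largest for Timp1, at -0.57.

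Of the 10 genes, 9 were below control in WK2, 10 below control in D1 and 8 below D1 in WK2. The median difference was -0.66 for WK2 minus control, beside 0.14 over all features. It was -0.17 for D1 minus control, beside 0.03, and -0.44 for WK2 minus D1, beside 0.10. WK2 and D1 are set against the same control arrays, so the 2 comparisons are not independent. Arrays of the 2 groups did not overlap for 7 of the 10 genes in WK2 against control, all lower, where 13.8% of all features were lower and 23.8% higher without overlap. They did not overlap for 2 of 10 in D1 against control (Timp1 and Col4a1, both lower), where 5.19% of all features were lower in this way. In WK2 against D1 it was 4 of 10 (Timp3, Col18a1, Fbln2 and Lamb2), where the share was 12.6%. The choice of the genes used these contrasts, and nothing is read from the counts.

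The threshold was an adjusted p under 0.05 (limma, Benjamini-Hochberg over all 23631 features). In WK2 against control, 1.61% of all features passed it, 0.432% higher and 1.18% lower, and so did 3 of the 10 genes, Timp3, Col18a1 and Fbln2, all lower. The 10 genes were chosen with these values in view, so these calls are no test of them. In D1 against control no feature passed it (0%), while 473 had an unadjusted p under 0.05. In WK2 against D1 0.0931% passed, none of them among the 10. The number of these genes past the threshold ranged with the processing from 0, when the 2 groups were fitted alone, to 6 with array weights. Timp3, Col18a1 and Fbln2 stayed past it without WK2 replicate 1, and none of the 3 did when any of the other 8 arrays was left out.

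Within groups, the 10 genes did not move as 1 block. Each array's deviation from its group mean was correlated between genes over the 9 arrays, which share their labelling and scaling. Of the 45 gene pairs, 28 had a positive r, with a median of 0.178 and a range from -0.839 (Col18a1 with Col4a1) to 0.731 (Hspg2 with Lamb2). Timp1 with Timp2 had an r of 0.725 and Fbln2 with Lamb2 0.724. Timp1 with Timp3 had 0.678, and the neighbours Col4a1 and Col4a2 had 0.083. These 9 values per gene are too few to read more than a description.

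The genes whose pattern was most like that of Timp3 were sought among 15613 named genes above the 25th percentile of level, by Pearson's r of log2 values over the 9 arrays. The 5 highest were Tsc22d4 (0.98), Arhgap40 (0.974), Gm10845 (0.966), Nkd2 (0.964) and Ncmap (0.959). Nkd2 encodes a Wnt pathway inhibitor and Ncmap a myelin-associated protein. Tsc22d4 read 5532, 6353 and 6391 in control, 5464, 5597 and 5461 in D1, and 3810, 3626 and 3861 in WK2, again with WK2 below both groups. Among the 10 genes, r with Timp3 was 0.879 for Fbln2 and for Lamb2, 0.839 for Col18a1, 0.764 for Col4a2, 0.754 for Timp2, 0.615 for Hspg2, 0.605 for Col4a1, 0.146 for Nid1 and -0.273 for Timp1. Such an r over 3 groups mostly repeats the group means.

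In RefSeq's annotation Timp3 lies within the span of Syn3, and Timp1 within that of Syn1, both synapsin genes that code for proteins of synaptic vesicles. Syn3 read 3001, 2027 and 3448 in control, 2469, 2129 and 2711 in D1, and 2034, 1407 and 1184 in WK2. WK2 minus control was -0.86 with an adjusted p of 0.0721 (limma), which did not pass, and control replicate 2 overlapped with the WK2 arrays. For Syn1 it was -0.97 (adjusted p = 0.108, limma), and -0.52 without WK2 replicate 3, while Timp1 was at 0.21. Whether the probes of the paired genes share signal was not tested.

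The rest of the pathway was followed through 4 lists of basement membrane components, their receptors, matrix proteases and protease inhibitors, with 96 of 103 genes measured. In WK2 against control 45 were above and 51 below control. Of these 2 rose and 1 fell past the threshold, or 3.12%, where 1.61% of all features passed. The lists' median was -0.06, beside 0.14 for all features. An unadjusted p under 0.05 (limma) was found for 32 of the 96, beside 7028 of all 23631 features. Counts of unadjusted p-values for single lists in this comparison, given below, stand beside that background, and nothing is read from them. WK2 and control did not overlap for 14 listed genes higher (14.6%) and 22 lower (22.9%), against 23.8% and 13.8% of all features. In D1 against control 42 were above and 54 below, with a median of -0.02. No listed gene passed the threshold (limma), while 6 had an unadjusted p under 0.05, beside 473 of all 23631 features. In WK2 against D1 it was 44 and 52, with 0 past the threshold and a median of -0.03. There 21 listed genes had an unadjusted p under 0.05, beside 4538 of all 23631 features.

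Among the 34 measured components, 12 were above and 22 below control in WK2, with a median of -0.22, which was -0.15 without WK2 replicate 2. Col4a4 rose. It encodes a collagen IV chain of the alpha3-alpha4-alpha5 network, which replaces the network of Col4a1 and Col4a2 in certain basement membranes. Its intensity was 1645, 872 and 1558 in control, 1779, 1889 and 2554 in D1, and 2744, 3955 and 2920 in WK2, with no overlap between WK2 and either group. The difference was 1.24 ± 0.26 (log2, SE), or 2.36-fold higher, with an adjusted p of 0.0494 (limma). Its 2 other probes, at 28 to 56 and 16 to 42 intensity, gave 0.15 and -0.10, and the mean of the probes gave 0.43 with an adjusted p of 0.135. The other chains of that network did not rise with it. WK2 minus control was 0.09 for Col4a3, at a low intensity of 117 to 163, and -0.19 for Col4a5, and neither passed the threshold. Pxdn, the peroxidasin that cross-links collagen IV, read 8585, 6343 and 8601 in control, 7784, 6721 and 8119 in D1, and 5405, 4087 and 3056 in WK2. Its arrays did not overlap between WK2 and control, and the difference of -0.92 ± 0.22 had an adjusted p of 0.0578 (limma), just outside the threshold. Between WK2 and D1 the smallest p-values of this list belonged to Agrn, the heparan sulfate proteoglycan agrin, at -0.86 (adjusted p = 0.116, limma) and to Pxdn at -0.88 (adjusted p = 0.137). In D1 against control they were those of Npnt, encoding the integrin ligand nephronectin, at -0.57 (unadjusted p = 0.00673, limma) and of Lama2, a laminin alpha chain, at -0.36 (unadjusted p = 0.0311), neither of which passed.

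None of the 14 receptors passed the threshold (limma) in WK2 against control, where 6 were above and 8 below, with a median of -0.05 (-0.09 to 0.004 with an array of either group left out), and 4 had an unadjusted p under 0.05. Itgb1, the beta1 chain shared by most laminin- and collagen-binding integrins, read 32621, 37001 and 34053 in control, 30876, 38828 and 33050 in D1, and 46113, 53576 and 52574 in WK2. All WK2 arrays were higher than all others, and the difference of 0.55 ± 0.15 (log2, SE) had an adjusted p of 0.0647 (limma). Itgb4, the beta4 chain of hemidesmosomes, was at -0.85 ± 0.28 (adjusted p = 0.0905, limma), again without overlap between WK2 and control, and at -0.50 without WK2 replicate 3. Set against D1, WK2 had Itgb1 at 0.57 (adjusted p = 0.137) and Ddr1, a receptor kinase for collagens, at -0.96 (adjusted p = 0.152), or -0.60 without WK2 replicate 3. In D1 against control the smallest p-values belonged to Dag1, the laminin receptor dystroglycan, at 0.38 (0.23 to 0.59 with an array left out) and to Ddr1 at 0.36, and neither passed.

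Of the 35 measured proteases, 21 were above and 14 below control in WK2, with a median of 0.07 (0.01 to 0.15 with an array of either group left out), and none passed the threshold (limma), while 10 had an unadjusted p under 0.05. Mmp9, the gelatinase B that TIMP1 binds, read 26516, 31578 and 36352 in control, 23713, 26921 and 20951 in D1, and 24358, 13754 and 14806 in WK2. WK2 was below control on all arrays, with a difference of -0.87 ± 0.23 (log2, SE) and an adjusted p of 0.0645 (limma). Adam17, the sheddase that TIMP3 inhibits, was at 0.57 ± 0.16 (adjusted p = 0.0731), with all WK2 arrays above all control arrays. Adam15 was at -0.67 ± 0.15 (adjusted p = 0.0554) and Adamts9, which cuts large proteoglycans, at 0.85 ± 0.21 (adjusted p = 0.0597), both without overlap. The other proteases of interest were closer to control. Mmp2, the gelatinase A, was at 0.03 (adjusted p = 0.928), and below 0 after quantile normalization and median centring. The membrane-bound Mmp14 was at -0.14 (adjusted p = 0.612; -0.35 to -0.01 with an array left out) and the sheddase Adam10 at 0.07 (adjusted p = 0.783), which was below 0 after median centring. Adamts9 and Adam15 were also the 2 proteases of smallest p in WK2 against D1, at 0.94 (adjusted p = 0.122) and -0.68 (adjusted p = 0.123). In D1 against control they were Plat and Plau, the 2 plasminogen activators, at -0.46 (unadjusted p = 0.00786, limma) and 0.77 (unadjusted p = 0.0497).

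Among the 13 measured genes of the protease inhibitor list, 6 were above and 7 below control in WK2. Their median was -0.05 (-0.14 to 0.07 with an array of either group left out). Not every gene of this list encodes an inhibitor, as with Pcolce below. Reck, a membrane-anchored inhibitor of metalloproteases, fell. Its intensity was 4448, 4133 and 5366 in control, 3325, 3334 and 3645 in D1, and 2748, 2346 and 2579 in WK2. The 3 groups did not overlap with one another. The difference between WK2 and control was -0.84 ± 0.15 (log2, SE), or 1.79-fold lower, with an adjusted p of 0.0413 (limma), and D1 minus control was -0.42 (unadjusted p = 0.0167), which did not pass the adjusted threshold. Serpinb5, the serpin maspin of epithelial cells, rose from 119, 82 and 120 in control to 204, 234 and 254 in WK2, with 114, 145 and 125 in D1. That was 0.84 ± 0.16, or 1.79-fold higher, with an adjusted p of 0.0424 (limma), at a low intensity. Timp4, the remaining TIMP, was at 0.28 (adjusted p = 0.249). For WK2 and D1 the smallest p-values were those of Serpinb5, at 0.66 (adjusted p = 0.129), and of Spock2, a proteoglycan of the testican family, at -0.96 (adjusted p = 0.191). Pcolce, which enhances procollagen processing, was at -0.41 in D1 against control and did not pass. Reck, Serpinb5 and Col4a4 kept an adjusted p under 0.05 when WK2 replicate 1 was left out, but not when any of the other 8 arrays was, where it reached 0.148.

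**Figure D3:**
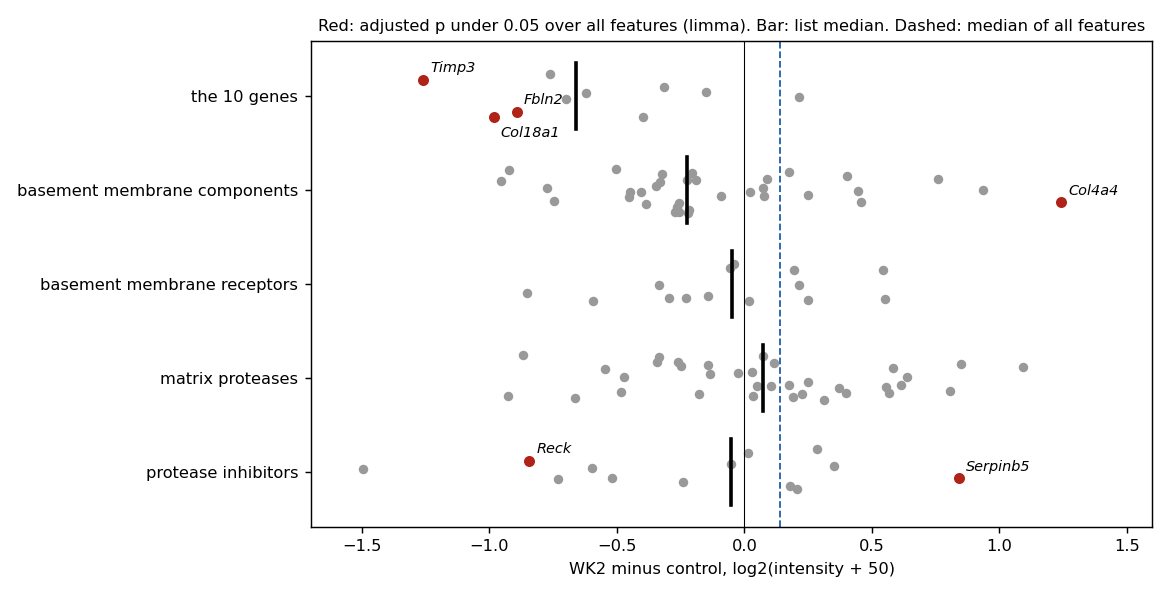
WK2 minus control on the scale log2(intensity + 50) for the 10 genes and for each measured gene of the 4 pathway lists (points), with the list median (bar) and the median of all features (dashed line at 0.14). Points with an adjusted p under 0.05 over all features (limma) are red and named. The median of the 10 genes, chosen with these values in view, is -0.66, and the 4 lists lie between -0.22 and 0.07.

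**Figure D4:**
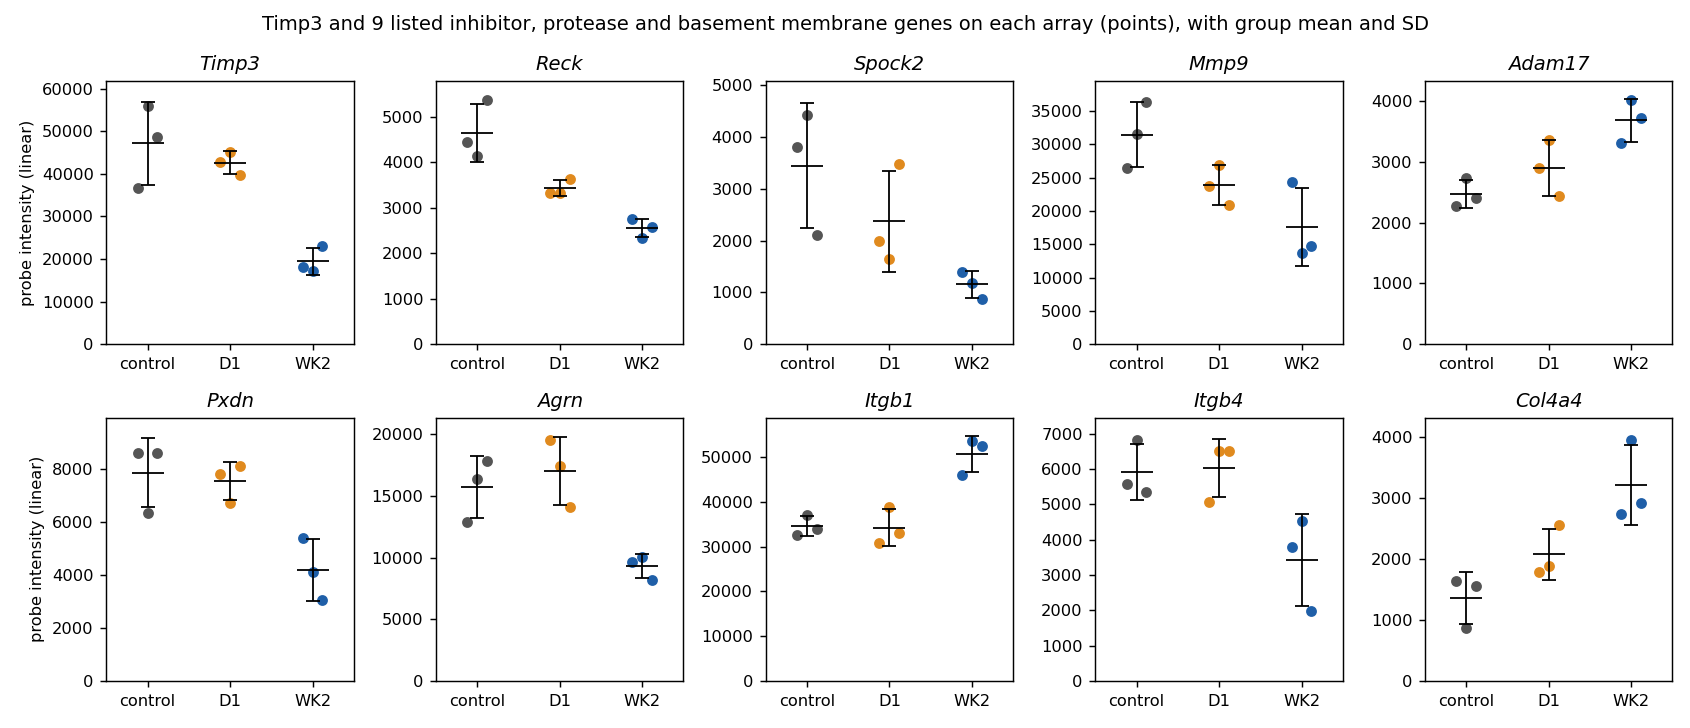
Probe intensity (linear, each axis from 0) of Timp3 and 9 listed genes on each array (points) in the control, D1 and WK2 groups, with the group mean (long line) and SD (bars), n = 3. Reck is lower in each group from control to D1 to WK2 without overlap, Mmp9 and Pxdn are lower and Adam17, Itgb1 and Col4a4 higher in WK2 than in control on all arrays.

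Markers of the cell types that make or border basement membranes were measured on the same arrays. Of 10 endothelial markers, 8 were below control in WK2 with a median of -0.21, which ranged from -0.32 to -0.10 with an array of either group left out. Their summed intensity was 36947 to 44232 over the WK2 arrays and 43672 to 47375 over the controls. None passed the threshold (limma), and 2 had an unadjusted p under 0.05, as had 7028 of all 23631 features. Tie1, an endothelial receptor kinase, was at -0.79 (adjusted p = 0.0551). Of 9 pericyte and smooth muscle markers, 5 were above and 4 below control, with a median of 0.02 (-0.12 to 0.09 with an array left out) and sums of 146080 to 211225 against 166419 to 177556. Notch3, a receptor of mural cells, fell by 0.79 on the log2 scale (adjusted p = 0.0499, limma), and stayed past the threshold in 7 of 20 alternatives, in none with an array left out.

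Fibroblast markers were also split, with 5 of 9 above control in WK2 and a median of 0.02 (-0.01 to 0.13 with an array left out). Their sums were 453847 to 794598 in WK2, 310729 to 330202 in D1 and 386326 to 407113 in control. The highest WK2 sum was that of replicate 3, the next 495561. Lum, which encodes lumican, was at 0.97 (adjusted p = 0.0819, limma), or 0.60 without WK2 replicate 3, and Thy1 at -0.62 (adjusted p = 0.0841). Of 8 measured cartilage and bone markers, 7 were below control in WK2, with a median of -0.40. Without control replicate 2 it was 6, with a median of -0.18. Their sums were 93067 to 205313 in WK2 and 121841 to 138778 in control. Dmp1 of osteocytes fell by 1.54 on the log2 scale (adjusted p = 0.0352, limma), and stayed past the threshold in 11 of 20 alternatives, among them those without control replicate 2 and without WK2 replicate 1 but no other array. All 8 were below control in D1, with a median of -0.495 (-0.629 to -0.356 with an array of either group left out). Their D1 sums were 71410 to 71898, below those of control. Of 7 measured ensheathing glia and Schwann cell markers, 5 were below control in WK2, with a median of -0.25 (-0.36 to -0.07 with an array left out) and sums of 42152 to 72525 against 47225 to 53901.

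The epithelial lists stand beside a median of 0.14 over all features. All 7 measured markers of sustentacular cells and Bowman's glands were above control in WK2, with a median of 0.40 (0.30 to 0.49 with an array of either group left out) and sums of 1804658 to 1989962 against 1241980 to 1529097. Of 10 markers of mature olfactory neurons 7 were above, with a median of 0.16 (0.08 to 0.17) and sums of 1342252 to 1454847 against 1103112 to 1279067, on samples selected for Omp. Of 7 horizontal basal cell markers 4 were above, with a median of 0.24 (-0.002 to 0.32) and sums of 49902 to 50009 against 36756 to 40657. None of these 3 lists had a gene past the threshold (limma). Their genes at an unadjusted p under 0.05 were 4, 4 and 2, beside 7028 of all 23631 features. Of 10 neutrophil markers 9 were above control in D1 with a median of 0.66, but 6 with a median of 0.16 without D1 replicate 2 and 6 with a median of 0.13 without control replicate 1. Their sums were 251081 to 694526 in D1, 333116 to 477003 in WK2 and 163196 to 414429 in control, and their WK2 median of 0.23 ranged from -0.36 to 0.90 with an array left out. Of 8 skeletal muscle markers 6 were above control in WK2, with a median of 0.19 (0.06 to 0.39). No marker was listed at 0 on any array. The part of these shifts in the levels of the 10 genes was not tested.

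**Figure D5:**
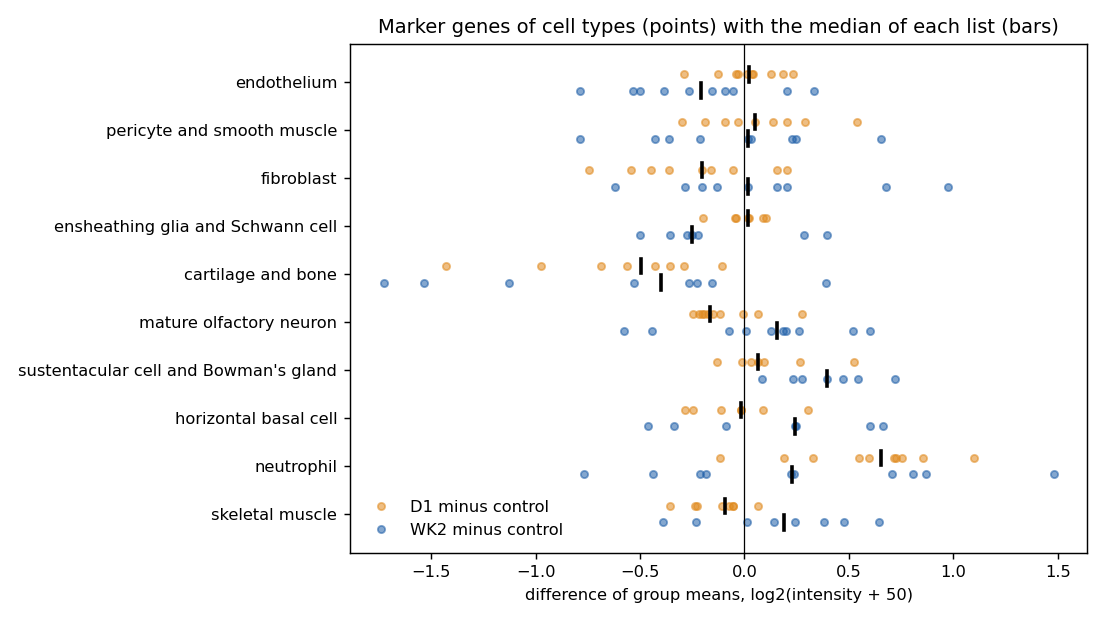
Differences from control on the scale log2(intensity + 50) of the marker genes of 10 cell types (points), for D1 and WK2, with the median of each list (bars). In WK2 the medians are -0.40 for cartilage and bone (-0.18 without control replicate 2), -0.25 for ensheathing glia and Schwann cells, -0.21 for endothelium and 0.40 for sustentacular cells and Bowman's glands. In D1 they are -0.495 for cartilage and bone and 0.66 for neutrophils (0.16 without D1 replicate 2).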

How the data were processed

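Total RNA of 9 samples was measured on 1-colour Cy5 arrays. The authors deposited 1 table of linear intensity values, 26423 probes by 9 arrays, with 8 to 18 values below 0 per array. Of their scanning and scaling the labels say nothing. The table holds no detection calls and names no batch. GEO's platform annotation named the probes, and RefSeq (GRCm38.p6) gave current symbols for the 21825 whose gene ID it held. There were 21876 probes with 1 symbol, 0 with several and 4547 with none. Each gene was represented by its brightest probe over the 9 arrays, which gave 23631 features.

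Values entered limma 3.58.1 in R 4.3.3 as log2(intensity + 50), with values below 1 after the addition set to 1, in 1 fit of all 9 arrays with Benjamini-Hochberg adjustment per comparison. The fit was tested on simulated data with independent noise for each gene and array. That says nothing of deviations that the genes of an array share. Array number limits precision, and an exact permutation test of 3 against 3 cannot go below 0.1. The labels name no batch and no pairing, so the main fit used no block. Deviations of same-numbered arrays correlated between -0.282 and 0.136, which cannot settle whether they share a batch.

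The members, the 4 pathway lists and the markers were chosen with earlier results of these data known. Named were all members, the genes past the threshold (otherwise the 2 of smallest p) of each pathway list and comparison, Timp4, Mmp2, Mmp9, Mmp14, Adam10, Adam17 and Reck, the 5 genes most like Timp3, and, of the marker lists, at most 2 each of smallest p. Col4a3 and Col4a5 were added as partner chains of Col4a4. Alternatives were quantile normalization, median centring, averaging the probes of a gene, filters on dim features, pseudocounts of 500 and 16, trend and robust moderation, the 2 groups alone, a replicate block, array weights and each array left out. The pseudocount of 16, the array weights and the alternatives for marker genes and lists were chosen after seeing the data. Promoter windows are RefSeq's.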

Additional observations from a re-analysis of the deposited data

Results flagged for a closer look

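Ddr1, the collagen receptor kinase, stood out because the means of the dexamethasone groups lay on opposite sides of the control mean. Every D1 array was above the control mean and every WK2 array below it. The Ddr1 intensity was 12266, 10505 and 12198 in control, 15753, 13828 and 15302 in D1, and 10662, 9117 and 4650 in WK2. WK2 and control overlapped, since WK2 replicate 1 was above control replicate 2. Neither group's difference from control passed the threshold. The difference between WK2 and D1 was -0.96 (log2, adjusted p = 0.152, limma), which did not pass the threshold, and -0.60 without WK2 replicate 3, whose array is the lowest. WK2 minus control was -0.60, and -0.24 without that array. Both groups are set against the same controls.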

How the results depend on the processing

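The median WK2 minus control difference of the 10 genes ran from -0.77 to -0.48 under the alternatives. The genes were chosen with these values in view, so a median below 0 throughout supports nothing. Several alternatives could not move it from -0.66: other moderation, the replicate block, the 2 groups alone and a D1 array left out. The number of calls changed with the processing. In WK2 against control 380 features passed (102 higher, 278 lower), but 1419 after quantile normalization, 1545 after median centring (221 higher, 1324 lower), 576 and 1135 without the dimmest 25% and 50%, 777 and 131 with pseudocounts of 500 and 16, 2738 with array weights (1279 higher, 1459 lower), 1 with a replicate block and 0 with the 2 groups fitted alone. Leaving out 1 array gave 1 to 953, the highest without WK2 replicate 1 and the lowest without WK2 replicate 2. In WK2 against D1 the 22 features became 75 after quantile normalization, 50 after median centring, 36 without the dimmest 25%, 13 with a pseudocount of 500, 8 with the replicate block, 2 with the 2 groups alone, 134 with array weights and 1 to 27 with an array left out. In D1 against control 0 features passed, and 0 to 1 with an array left out. Of the pathway lists the 3 genes called in WK2 against control became 11 after quantile normalization, 11 after median centring, 12 without the dimmest 50%, 5 and 1 with pseudocounts of 500 and 16, 14 with array weights, 0 with the replicate block, 0 with the 2 groups alone and 0 to 9 with an array left out. In WK2 against D1 1 listed gene passed with array weights, against 0.

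Timp3 passed in 10 of 20 alternatives, Col18a1 in 9 of 20, Fbln2 in 7 of 19, Reck in 9 of 20, Serpinb5 in 8 of 18 and Col4a4 in 7 of 20. Each was lost when any array but WK2 replicate 1 was left out. Timp3, Col18a1 and Fbln2 were chosen with these values in view, so their calls are a description only. Mmp2 in WK2 against control (0.03) turned to -0.0941 after quantile normalization and -0.0673 after median centring, and ranged from -0.139 to 0.216 with an array left out, below 0 without control replicate 1, control replicate 3 or WK2 replicate 1. Adam10 (0.07) turned to -0.0267 after median centring and -0.003 with array weights, and ranged from -0.0995 to 0.170 with an array left out, below 0 without control replicate 2. The causes were not tested. Of 1189 values of single genes under alternatives, 1119 counted as unchanged. For a listed gene that meant the same direction and side of the threshold. For the 10 genes it meant only a shift smaller than the replicate SD, whatever the side of the threshold. The sign was checked only for those called. The losses of Timp3, Col18a1 and Fbln2 given above are therefore not in this tally. Among listed genes 34 values lost their call, 22 gained one and 8 reversed. Of the 10 genes, 6 values moved beyond the replicate SD.

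The labels name no pairing of arrays by replicate number. Deviations of same-numbered arrays correlated between -0.282 and 0.136, which at 3 arrays a group cannot settle whether they share a batch. With the replicate block none of the 10 genes passed. Detection calls were not used here, so background limits for dim probes are unknown.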
